A study of Homo sapiens with 3 samples.

Results

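The MYC family and the MAX network were examined in IMR-32 and NGP, which are 2 cell lines from neuroblastoma, and in a reference pool made from 16 cancer cell lines. The genes were taken from a list of 10 (MYCN, MYC, MYCL, MAX, MXD1, MXI1, MXD3, MXD4, MNT and MLX), and the probe sets that name 1 of these genes alone were used. Of the 10 genes, 9 were measured in this way, by 31 of the 41091 probe sets and among 19775 genes in all. MXD4 was the exception, since its 3 probe sets also name a second gene. PolyA RNA of untreated cells was measured on U133 Plus arrays of Affymetrix, and each of the 3 samples has a single array. IMR-32 and NGP are established lines in which MYCN is amplified, and they were grown in different media (Minimum Essential Medium for the IMR-32 cells and RPMI medium for NGP), so that line and medium cannot be told apart. The lines that make up the pool are not named in the sources used here. The values are MAS5 signal intensities on a linear scale, and a ratio is the log2 of one array's signal over another's. A gene's ratio is the median over its probe sets, and it was called high or low when it lay within the top or bottom 7% of the ratios of all genes. No replicate array exists, so that no difference could be tested and none has a p-value. Precision is limited by having 1 array per sample.

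MYCN, MYC and MYCL encode transcription factors of one family. They bind DNA as dimers with MAX, mostly at E-box sequences, and activate genes for growth and cell division. MXD1, MXI1, MXD3, MXD4 and MNT encode proteins that compete for MAX and bring the SIN3 corepressor with its histone deacetylases to the same sites. MLX is a MAX-like protein that pairs with MLXIP (MondoA) and MLXIPL (ChREBP), which sense sugar metabolites, and with some of the MXD proteins and MNT. MYCN is the family member of the developing nervous system and is the classic amplified oncogene of neuroblastoma, whereas MYC is the member used by most dividing epithelial and blood cells.

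The E-box CACGTG, the sequence that MAX dimers bind, reads the same on both strands and was searched for in the RefSeq promoters (GRCh38.p14, from 250 bases before to 50 bases after the gene start). Of the 10 genes, 9 had a promoter in the table, and 3 of these held the motif, those of MNT, MLX and MXD4, against 7.43% of all 27305 promoters. Among 25 textbook genes activated by MYC or MYCN, 22 had a promoter and 11 of these held it. The windows below are shown because they hold the binding sequence of the network in its own genes and in 3 of those targets (SRM, LDHA and PPAT) and in ARRDC4, a target of MLX dimers. Each is printed in the direction of the gene, with the E-box in capitals. The MNT window lies at chr17:2401231-2401270 (minus strand) and that of MLX at chr17:42567033-42567072 (plus strand). The MXD4 window lies at chr4:2262325-2262359 (minus strand), ARRDC4 at chr15:97960476-97960515 (plus strand) and SRM at chr1:11060195-11060234 (minus strand). The LDHA window lies at chr11:18394361-18394400 (plus strand) and that of PPAT at chr4:56435775-56435814 (minus strand).
MNT: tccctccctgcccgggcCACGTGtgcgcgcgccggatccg
MLX: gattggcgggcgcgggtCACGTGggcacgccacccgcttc
MXD4: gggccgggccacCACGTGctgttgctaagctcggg
ARRDC4: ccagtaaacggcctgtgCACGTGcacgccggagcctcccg
SRM: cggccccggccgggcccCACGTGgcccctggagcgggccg
LDHA: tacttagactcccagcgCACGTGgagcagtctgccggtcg
PPAT: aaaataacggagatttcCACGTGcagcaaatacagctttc

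The MYCN promoter, shown because MYCN is the family member with high signals in both lines, held no CACGTG. The 250 bases before its start (GRCh38.p14, chr2:15940300-15940549, plus strand) held 1 match to TTTGGCGC, a sequence of the kind bound by E2F factors, which starts 176 bases before the gene start and is in capitals. Both strands were searched (the reverse is GCGCCAAA). Among all promoters 0.553% held this motif in the same stretch, and none of the other members with a promoter in the table did. At that share its absence from a few promoters says little. Other forms of the E2F sequence were not searched for, so the search cannot show a site particular to MYCN.
MYCN: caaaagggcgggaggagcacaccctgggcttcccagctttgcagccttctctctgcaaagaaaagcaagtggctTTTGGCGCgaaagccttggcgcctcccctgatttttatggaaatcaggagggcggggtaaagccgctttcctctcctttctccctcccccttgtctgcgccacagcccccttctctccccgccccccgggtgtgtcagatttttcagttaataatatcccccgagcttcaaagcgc

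The 3 arrays had the same trimmed mean of 500 and median signals of 89.9 in IMR-32, 98.8 in NGP and 119 in the pool. A probe set below the median of its array is called dim here. Of the 31 probe sets, 16 were at or above the array median in all arrays and 8 were dim in all. The cut-offs lay at 1.68 and -2.83 for IMR-32 over the pool, at 1.84 and -2.88 for NGP over the pool, and at 1.95 and -1.84 for NGP over IMR-32. The median ratio of all genes was -0.23, -0.22 and 0.02 in these comparisons. Single probe sets of a gene differed with a standard deviation (SD) of 1.31, 1.41 and 1.28. Of 7 measured sympathoadrenal marker genes 4 were called high over the pool in IMR-32 and 7 in NGP, beside a background of 7% of genes in each direction. Tyrosine hydroxylase (TH) and DBH, the enzymes of noradrenaline synthesis, had median signals of 103 and 62.5 in IMR-32, against 4379 and 636 in NGP. The epithelial markers EPCAM, KRT8, KRT18, KRT19 and CDH1 were all called low over the pool in both lines, and their summed signal was 371 in IMR-32, 284 in NGP and 56210 in the pool.

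The brightest MYCN probe set lay near the top of the array in both lines, the MYC probe set lay below the array median, and MYCL lay near it. Of the 9 measured genes, 1 was called high and 1 low in IMR-32 over the pool (MYCN and MYC), and 0 high and 1 low in NGP (MYC), against a background of 7% of genes at each end. The highest MYCN signals came from the probe set 209757_s_at, with 31846 in IMR-32, 46144 in NGP and 8493 in the pool. These signals lay above those of 99.6%, 99.7% and 98.2% of the probe sets of their arrays. On this probe set MYCN was therefore bright in the pool also, and the lines exceeded the pool by 3.75-fold (IMR-32) and 5.43-fold (NGP). Of the 10 MYCN probe sets, 6 were dim in the pool.

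A pair of further MYCN probe sets showed larger differences over a pool signal just above the array median. 209756_s_at had signals of 2750 in IMR-32, 5130 in NGP and 223 in the pool (12.3-fold and 23.0-fold over the pool). 211377_x_at had signals of 1046, 3666 and 174 (6.01-fold and 21.1-fold). 234376_at was dim in IMR-32 and the pool and bright in NGP, with signals of 63.8, 436 and 11.6. On all 4 of these probe sets the order was NGP, then IMR-32, then the pool.

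Of the other 6 MYCN probe sets, 1 (234872_at) had the same order and 5 did not. All 6 were dim in both lines, with signals of 5.01 to 67.6 in IMR-32, and of 2.35 to 48.2 in NGP. Of these, 5 were designed on the same source sequence and so are not independent of each other. The median log2 ratio over the pool was 0.86 in IMR-32 and -0.07 in NGP for those 5, against 2.46 and 4.40 for the other 5 MYCN probe sets. The MYCN ratio over all 10 was 1.89 in IMR-32 (called high) and 1.63 in NGP (not called), and without the 5 of shared source MYCN was called high in both lines. That setting was chosen after the values were seen. NGP over IMR-32 was 0.47 for the 10 probe sets and 0.90 without the 5, which is below the SD of 1.28 between probe sets of a gene.

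MYC, by contrast, was bright in the pool and dim in both lines. It was measured by 1 probe set, 202431_s_at, with a signal of 11.1 in IMR-32, 85.3 in NGP and 22905 in the pool. The pool signal lay above 99.4% of that array, while the signals of the lines lay above 13.4% in IMR-32 and 46.5% in NGP. The log2 ratios over the pool were -11.01 in IMR-32 and -8.07 in NGP, both called low. Because both lines were dim, only the direction of these ratios is well supported by the signals. Set against the highest of the 3 array medians (119) in place of the signals of the lines, the pool was at least 192-fold higher. The epithelial markers given above fell in both lines as well, and their part in the MYC result was not tested. In a mixture of RNA, the share of cells with MYC and the level per cell cannot be told apart.

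MYCL, the family member first found in lung cancer, had 2 probe sets that disagreed. 214058_at had signals of 85.4 in IMR-32, 124 in NGP and 212 in the pool, and was lower in both lines than in the pool (log2 ratios of -1.31 and -0.77). 215491_at had signals of 89.0, 73.1 and 15.3, and was dim in all 3 arrays. Its log2 ratios were 2.54 and 2.26, which raised the MYCL median above 0 (0.61 in IMR-32 and 0.74 in NGP). In both lines MYCL signals lay between 42.8% and 55.0% of the array, so that neither line had a MYCL signal clearly above its array median. No MYCL ratio was called in any comparison. Of the family, MYCN thus had bright signals in IMR-32 and NGP, and MYC had none in either line. In the pool MYC was bright, as was MYCN on its brightest probe set, 209757_s_at.

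**Figure D1:**
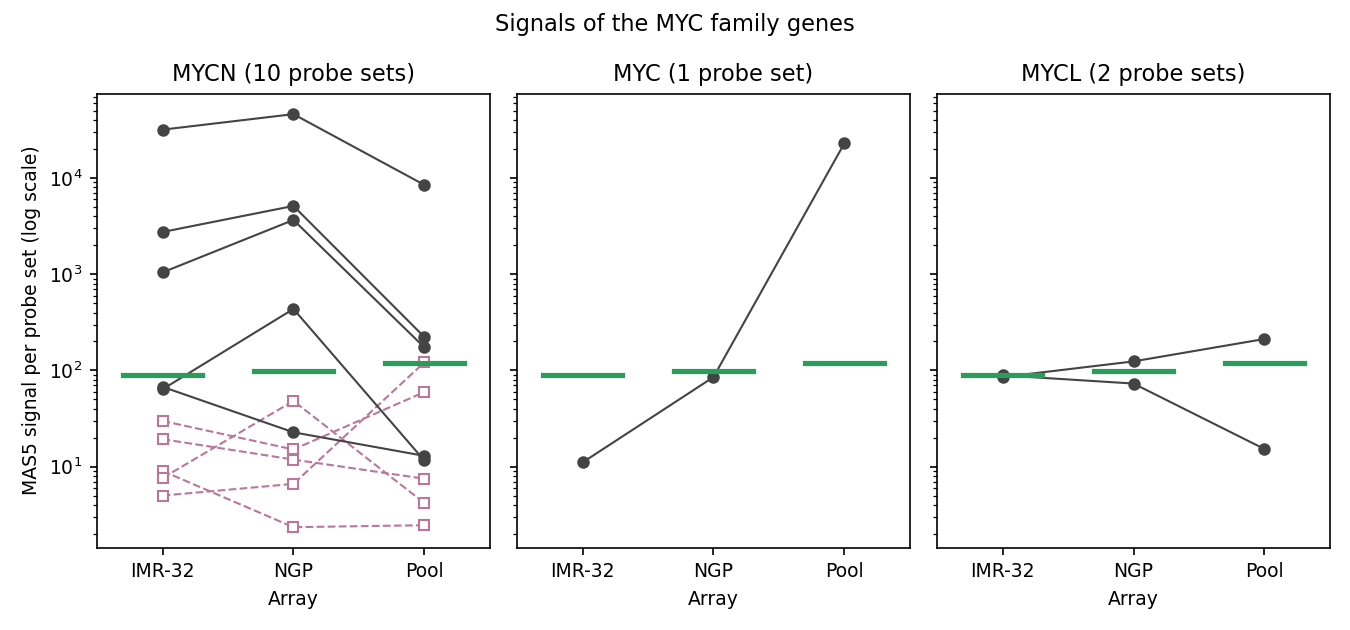
MAS5 signals (log scale, y-axis) of each probe set of MYCN, MYC and MYCL in the 3 arrays (x-axis), with lines joining the same probe set, open squares for the 5 MYCN probe sets of one source sequence and green bars for the array medians. The brightest MYCN probe set lies at 8493 or above in all arrays, the MYC probe set falls from 22905 in the pool to 11.1 in IMR-32, and MYCL stays close to the green bars except for 1 probe set in the pool.

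MAX, the obligate partner of the family, had nearly the same signal in the 3 arrays. Its brightest probe set, 209332_s_at, had signals of 4412 in IMR-32, 4055 in NGP and 4029 in the pool. 209331_s_at had signals of 1402, 1124 and 1050, and 210734_x_at had signals of 697, 705 and 676. These 3 probe sets and 208403_x_at had log2 ratios over the pool from 0.01 to 0.42 in the 2 lines. The fifth, 214108_at, was dim in IMR-32 (60.3, against 161 in NGP and 157 in the pool), with a ratio of -1.38 there. The MAX median ratio was 0.04 in IMR-32, 0.06 in NGP and 0.02 for NGP over IMR-32, in each case far within the SD of 1.28 to 1.41 between probe sets of a gene. Of all genes, 59.8% had a ratio at or below that of MAX in each line over the pool.

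Among the repressors, MXI1 was higher in NGP, while MXD3 and MXD1 stayed near the pool. MXI1 had a signal of 2540 in IMR-32, 6842 in NGP and 2697 in the pool, from 1 probe set. Its ratio was -0.09 in IMR-32 and 1.34 in NGP (2.54-fold over the pool), below the cut-off of 1.84. NGP exceeded IMR-32 by 1.43 on the log2 scale (2.69-fold), more than the SD of 1.28 between probe sets of a gene and below the cut-off of 1.95. With log2(signal + 32) and with dim signals raised to 119, MXI1 was called high in NGP in both comparisons. The upper cut-offs were lower under these settings, at 1.20 and 0.91 over the pool and at 1.08 and 0.66 over IMR-32. MXI1 itself did not rise over the pool (1.33 with log2(signal + 32)).

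MXD3, a repressor linked to dividing cells, had signals of 502 in IMR-32, 582 in NGP and 568 in the pool, and ratios of -0.18 and 0.03. MXD1, a repressor that rises as many cells differentiate, was measured by 3 probe sets. Its brightest, 226275_at, had signals of 227 in IMR-32, 506 in NGP and 259 in the pool, so that NGP stood above the other arrays by about 1 on the log2 scale (0.97 over the pool and 1.16 over IMR-32). 228846_at had signals of 132, 146 and 170 and showed no such difference, and 206877_at was dim in all arrays. The MXD1 median was -0.36 in IMR-32 and -0.22 in NGP, and neither was called.

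MNT, the most broadly expressed antagonist of MYC, was level on its bright probe set and not on the other. 204206_at had signals of 1324 in IMR-32, 1329 in NGP and 1087 in the pool, a difference of 1.22-fold in both lines. 236749_at had signals of 113, 95.6 and 18.1, with ratios of 2.65 and 2.40 over a pool signal far below the array median. The MNT median of these 2 probe sets was 1.47 in IMR-32 and 1.34 in NGP, below both cut-offs, and with the brightest probe set alone it was 0.28 and 0.29. Between the lines MNT did not separate (-0.12).

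**Figure D2:**
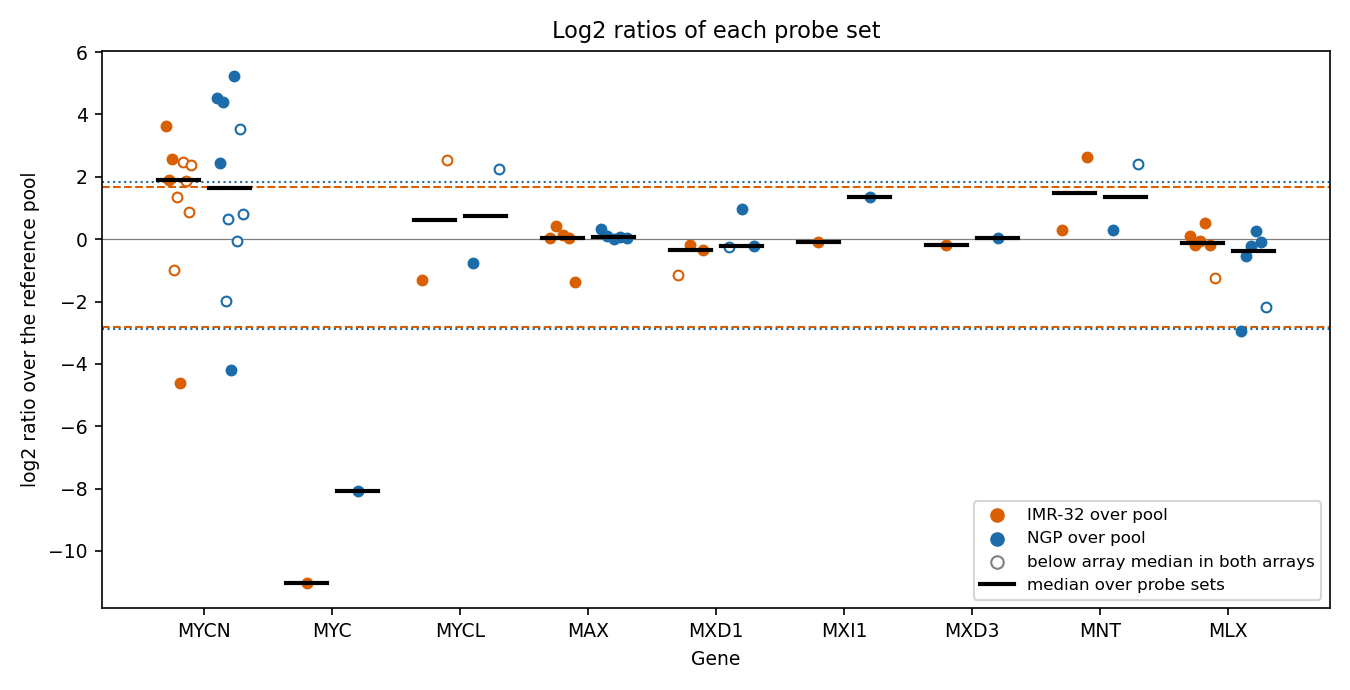
Log2 ratio over the pool (y-axis) of each probe set of the 9 measured genes (x-axis) in IMR-32 and NGP, with open circles where both arrays were below their medians, black bars for the gene median, and dashed (IMR-32) and dotted (NGP) lines for the cut-offs. MXD3, the brightest MLX probe sets and the MAX probe sets other than 1 at -1.38 in IMR-32 lie near 0. The MLX probe set 1570347_at lies at -2.95 in NGP. MXI1 is at 1.34 in NGP and -0.09 in IMR-32, and MYC lies below both lower cut-offs.

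MLX was level as well, whereas its partner MLXIP was far higher in NGP. The 3 brightest MLX probe sets, 213708_s_at, 217909_s_at and 217910_x_at, had signals of 1992 to 3229 in IMR-32, 2133 to 2894 in NGP and 2188 to 3340 in the pool. Their ratios over the pool lay between -0.21 and 0.52. The probe set 1570347_at differed, with 244 in IMR-32, 29.1 in NGP and 225 in the pool, and it alone gave a low call for NGP when probe sets ending in _s_at and _x_at were left out. The MLX median was -0.11 in IMR-32 and -0.37 in NGP. MLXIP, which lies in a region of 12q that is amplified in NGP, had a median signal over 4 probe sets of 733 in IMR-32, 10457 in NGP and 784 in the pool. Its ratio was 3.70 in NGP (called high) and -0.12 in IMR-32, and all 4 probe sets were higher in NGP than in IMR-32, by 3.64 to 4.66.

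The remaining partners moved less. MGA, a large MAX-binding repressor, had ratios of 0.69 in IMR-32 and 1.79 in NGP, just below the cut-off of 1.84, and its 4 probe sets lay between 1.13 and 2.72 in NGP. MLXIPL was dim in all arrays, with signals of 20.7, 19.0 and 108. Of 3 textbook targets of MLX dimers, 0 were called in any comparison, against 7% of genes at each end. ARRDC4, an arrestin-like protein that limits glucose uptake, had a signal of 418 in IMR-32, 1071 in NGP and 372 in the pool. Its ratio was 1.53 in NGP. It was called high with log2(signal + 32), where the cut-off was lower (1.20). TXNIP, which also limits glucose uptake, had median signals of 1232, 1442 and 2897, and NGP exceeded IMR-32 by 0.25. PKLR, a pyruvate kinase of liver and red cells, had median signals of 21.8, 4.52 and 14.5.

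No gene of the corepressor and cofactor lists passed the cut-offs. With 7% of all genes called at each end, lists this short would hold few calls. Of 8 measured SIN3 corepressor genes, 0 were called high or low over the pool in either line. The median ratio was 0.07 in IMR-32 and 0.52 in NGP. The histone deacetylase HDAC1 had signals of 1683 in IMR-32, 3408 in NGP and 8298 in the pool, and HDAC2 had median signals of 8685, 4668 and 3857. Their ratios went in opposite directions in both lines (-2.30 and 1.22 in IMR-32, -1.28 and 0.59 in NGP). HDAC1 lies in a region of chromosome 1 that the study describes as lost in IMR-32, as does RBBP4, which had a ratio of 0.26 there. The part of that loss was not tested. With log2(signal + 32), where the cut-offs narrowed to -1.69 and 1.11, HDAC1 was called low and HDAC2 high in IMR-32.

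Of 13 measured coactivator and cofactor genes, 0 were called in any comparison, beside 7% of all genes at each end. The medians were -0.08 in IMR-32 and -0.00 in NGP. TRRAP, the scaffold of the acetyltransferase complexes that MYC recruits, had ratios of 0.48 and -0.00. WDR5, a chromatin docking partner of MYC, had ratios of -0.51 and -0.88, and SKP2, a ubiquitin ligase subunit, had 0.87 and -0.09. Of 10 measured genes for MYC or MYCN protein turnover, 0 were called, beside the same 7%. AURKA, the kinase that stabilizes the MYCN protein, had median signals of 2768 in IMR-32, 2407 in NGP and 5614 in the pool, ratios of -1.02 and -0.88. FBXW7, the ligase subunit that marks MYC proteins for degradation, had ratios of 0.98 and 1.31. PPP2R5A, a phosphatase subunit, had the lowest ratios of the list (-1.30 and -2.29).

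Target genes that MYC or MYCN activate were close to the pool in both lines. Of 20 measured genes, 11 had a ratio above 0 in IMR-32 (55.0%, against 41.6% of all genes) and 13 in NGP (65.0%, against 42.3%). The median was 0.03 in IMR-32 and 0.34 in NGP, beside -0.23 and -0.22 for all genes. No gene of the list was called high over the pool in either line, beside 7% of all genes at each end. CCND2, a cyclin of the G1 phase, was called low in IMR-32 (-4.09). All 4 of its probe sets were dim there, and their ratios ran from -9.18 to -0.71. The nucleolar genes NCL and FBL had ratios of 0.78 and 0.19 in IMR-32 and of 0.96 and 1.21 in NGP. ODC1, the first enzyme of polyamine synthesis, had signals of 21171 in IMR-32, 15468 in NGP and 24202 in the pool, and LDHA, lactate dehydrogenase, had 32266, 27407 and 44062, so that both were lower than the pool in both lines. TERT, the catalytic subunit of telomerase, had ratios of 0.66 and 1.75.

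Most of the target genes that MYC or MYCN repress were lower than the pool. Of 10 measured genes, 3 had a ratio above 0 in IMR-32 (30.0%, against 41.6% of all genes) and 1 in NGP (10.0%, against 42.3%). The median was -0.97 and -1.36, beside -0.23 and -0.22 for all genes. Every probe set of CDKN2B, TGM2 and NGFR was dim in both lines, as were all 7 of THBS1 in IMR-32 and 6 of them in NGP. Without dim probe sets, 9 genes were left in IMR-32, with a median of -2.55 and 3 low calls (NDRG1, CDKN2B and THBS1). That setting left out only probe sets dim in both arrays compared. A probe set dim in IMR-32 stayed only if bright in the pool, which fixed its ratio below 0. This holds for CDKN2B, TGM2 and THBS1, so that the shift says nothing further about repression. The mesenchymal markers had medians of -1.84 and -0.99 and the epithelial markers -7.45 and -7.80, and their part in these ratios was not tested. In each line 1 of 10 was called low, NDRG1, a stress gene repressed by MYCN, beside 7% of all genes. Its signal was 263 in IMR-32, 121 in NGP and 5407 in the pool, and its ratios were -4.36 and -5.48. CLU (clusterin) had ratios of -2.56 and -1.73, and the cell cycle inhibitor CDKN1A had -0.56 and -1.71. DKK1, an inhibitor of WNT signalling, was the exception in NGP, with signals of 3814 in IMR-32, 10889 in NGP and 5370 in the pool (a ratio of 1.02 in NGP).

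**Figure D3:**
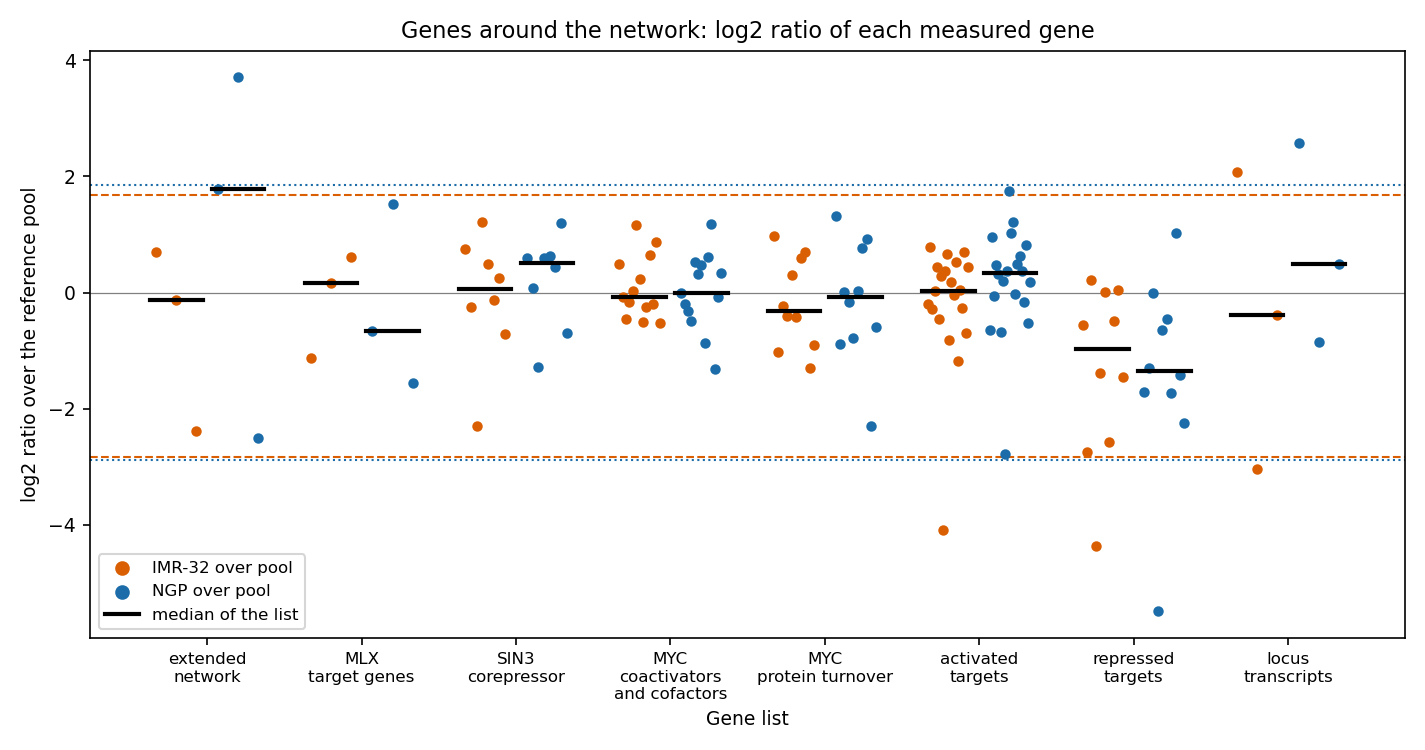
Log2 ratio over the pool (y-axis) of each measured gene of 8 lists around the network (x-axis) in IMR-32 and NGP, with black bars for the list medians and dashed (IMR-32) and dotted (NGP) lines for the cut-offs. Most genes lie between the cut-offs, MLXIP is at 3.70 in NGP among the extended network genes, and the medians of the repressed targets are at -0.97 and -1.36.

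Set directly against each other, the 2 lines were closest for MAX, MNT, MXD3 and MYCL, and the partner MLXIP stood 19.5-fold higher in NGP (4.29, called high). NGP over IMR-32 was called high for 1 of the 9 genes (MYC, 2.94) and low for 0, beside 7% at each end. The MYC call rests on signals of 85.3 and 11.1, both dim, and it was lost when dim signals were raised to 119. Of the others, 6 of 8 were higher in NGP, beside 50.8% of all genes. They ran from 0.02 for MAX, which is also the median of all genes, to 1.43 for MXI1. The 2 MYCL probe sets disagreed in sign (-0.28 and 0.54). MNT (-0.12) and MLX (-0.32) were lower. Among the activated targets 1 of 20 was called high (CCND2, 2.33, from 4 probe sets between -2.25 and 4.79, all dim in IMR-32). CDK4, which is amplified in NGP, was at 1.83, SRM, the spermidine synthase gene, at 1.81 and FBL at 1.02, and the lowest value of the list was -0.45 for ODC1. SRM lies in a region that the study describes as lost in IMR-32, and the part of that loss was not tested.

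Of the transcripts beside MYCN and MYC, MYCNOS alone was called over the pool in both lines in the same direction. MYCN lies at chr2:15940550-15947004 (GRCh38.p14), and MYCNOS, on its opposite strand, had median signals of 403 in IMR-32, 601 in NGP and 79.8 in the pool, with ratios of 2.08 and 2.58, both called high. Its 2 probe sets lay far apart, at 0.71 and 3.44 in IMR-32 and at 1.09 and 4.06 in NGP, and both were dim in the pool. The 2 genes overlap. The probe sets of MYCNOS name it alone, but their positions were not used, so that signal from MYCN itself cannot be told apart. MYCNUT, an upstream transcript, was called low in IMR-32 over the pool (-3.04) and high in NGP over IMR-32 (2.20), from signals of 14.4, 65.9 and 119 that were dim in all arrays. DDX1, an RNA helicase gene upstream of MYCN, had ratios of 1.44 in IMR-32 and -0.55 in NGP, while CYRIA after MYCN had -0.86 and 2.87, so that these neighbours moved in opposite directions in the 2 lines. In the study the amplified stretch around MYCN lies more on the DDX1 side in IMR-32 and on the CYRIA side in NGP. Its part in these ratios was not tested. MYC lies at chr8:127735434-127742951, and the long non-coding RNA gene PVT1 next to it was dim in all arrays (42.9, 78.5 and 55.8). The 6 measured neighbours of MYC had ratios over the pool between -1.71 and 0.31 in IMR-32 and between -4.59 and 2.97 in NGP, so that none came near the MYC ratios of -11.01 and -8.07. Of these, LRATD2, POU5F1B and LINC00824 were called low in NGP, and LINC02912 was called high.

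Of the 10 genes, MYCL is the one in a region that the study describes as lost in IMR-32. It lies at chr1:39895428-39901917, and its 6 nearest measured neighbours all had ratios below 0 in IMR-32, from -1.68 to -0.24 with a median of -0.80. Of all genes only 41.6% had a ratio above 0 in IMR-32, and their median was -0.23. In NGP the median of the same 6 neighbours was -0.91, beside -0.22 for all genes. MXI1 lies at chr10:110207605-110287365, and its 6 neighbours had a median of 0.23 for NGP over IMR-32, against 1.43 for MXI1. MXD1 lies at chr2:69915109-69942945 and its neighbours had medians of 0.57 in IMR-32 and 0.30 in NGP. The neighbours of MAX (chr14:65006101-65102695) ranged from -2.64 to 1.84 in IMR-32, while MAX was at 0.04.

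By the distance between their 2 ratios over the pool, the genes most like MYCN were HGS, ABHD13, ST8SIA4, BCAT1 and WDR13, at 0.03 to 0.08 on the log2 scale. Those most like MYC were TCN1, MAGEA12, MAL2, SCGB2A2 and CLDN7, at 0.76 to 1.97. Both searches ran over 14709 genes with at least 1 signal at or above an array median. They rest on 3 arrays and on 2 ratios per gene, and whether such matches share more than these ratios was not tested. The MYCN search used the ratios over all 10 probe sets (1.89 and 1.63), against 2.46 and 4.40 without the 5 of shared source. The genes named are thus close to the median over all 10 and need not be close to the bright probe sets.

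**Figure D4:**
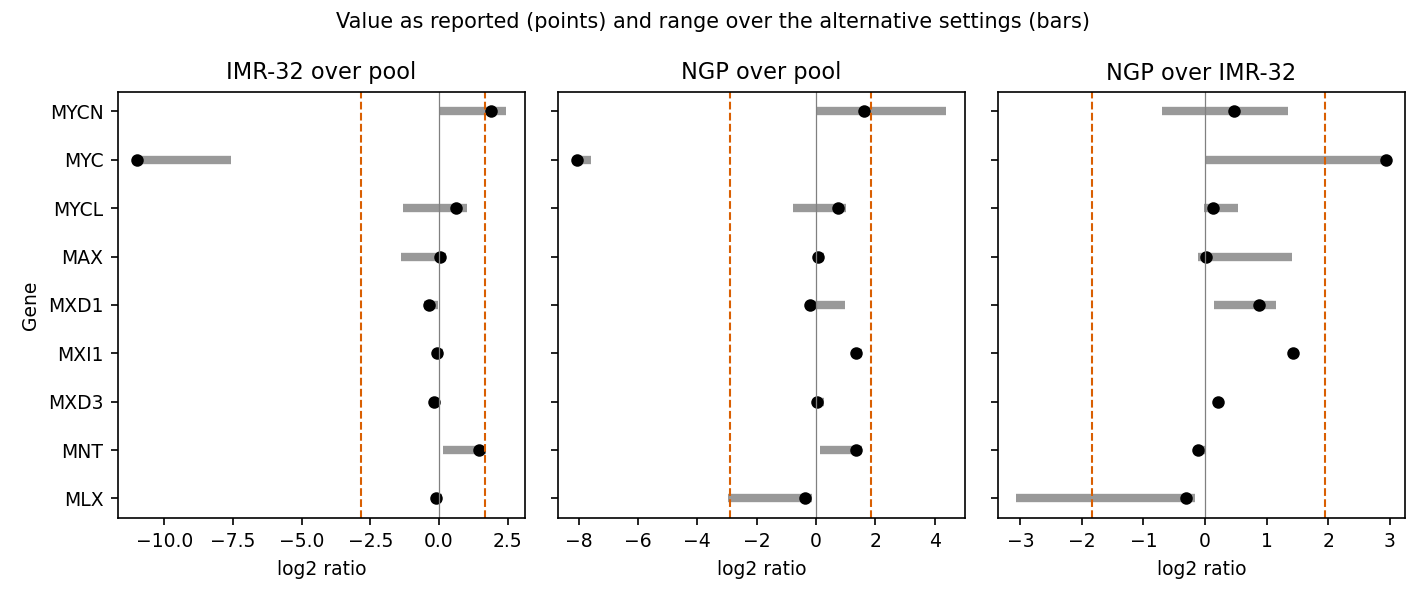
Log2 ratio (x-axis) of the 9 measured genes (y-axis) in the 3 comparisons, as reported (points) and over the alternative settings (grey bars), with the cut-offs as dashed lines. MYC stays below the lower cut-off over the pool in both lines, MXI1 and MXD3 hardly move, and the MYCN bar crosses the upper cut-off in both lines.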

How the data were processed

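The authors summarized the scans by MAS5 in the Bioconductor package affy (version not given in the sources used here). The deposited unit is signal intensity on a linear scale, with a 2% trimmed mean of 500 in each array. Detection calls were not analysed here. After removal of 62 controls, 41091 probe sets had 1 gene symbol in the platform annotation, 1801 had several and 11721 had none. Only the first kind was used, and 41037 of them were matched by gene ID to the RefSeq gene table (GRCh38.p14) for current symbols and positions. Probe sequences and positions were not used.

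Log2 ratios were computed without a pseudocount. The 7% rule follows the methods of the study, and was applied to gene medians (1384 genes at each end). All members, 8 gene lists, cell type markers, the 3 nearest measured genes on each side of a member, and the 5 genes with ratios nearest to MYCN and MYC were to be named. Members and lists were chosen with earlier results of these data known. The ratios were recomputed under 10 other settings and under 2 more chosen after the data were seen. The ratio and call code was tested on simulated data, in which all probe sets of a gene were shifted alike. Their spread was smaller than in these data, so that the test does not cover genes whose probe sets disagree. The work was done in Python 3.11.15 with pandas 2.3.3, numpy 2.4.6 and SciPy 1.17.1, and plots were drawn with matplotlib 3.10.9.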

Additional observations from a re-analysis of the deposited data

Results flagged for a closer look

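The 7 genes given here lay on opposite sides of the pool in the 2 lines, and further apart than the SD of 1.28 between probe sets of a gene. With 1 array per line the difference was not tested. MXI1 was at -0.09 in IMR-32 and 1.34 in NGP, and NGP over IMR-32 was 1.43. MLXIP was at -0.12 and 3.70, with a difference of 4.29. CDK4 was at -0.81 and 1.02, with a difference of 1.83, and SRM at -1.18 and 0.62, with a difference of 1.81. SRM lies on the short arm of chromosome 1 in a region that the study describes as lost in IMR-32. The part of that loss was not tested. DKK1 was at -0.49 and 1.02, with a difference of 1.51. PKLR was at 0.61 and -1.56 (-1.67 between the lines), with 2 of its 3 probe sets dim in all arrays. NGFR was at 0.05 and -1.42 (-1.47 between the lines), from 1 probe set that was dim in all arrays.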

How the results depend on the processing

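The low MYC ratio over the pool was called in both lines under every alternative that kept its probe set, with ratios of -11.01 to -7.59 in IMR-32, and of -8.07 to -7.59 in NGP. MYC has no other probe set, so that without _s_at and _x_at probe sets it had no value, the genes called low in IMR-32 fell to 0, those called high in NGP over IMR-32 fell to 0, and MLX was the 1 called low there. In NGP over the pool MLX was the 1 called low under that setting, in place of MYC. The MYCN call in IMR-32 was lost (0 genes high) with log2(signal + 32), with the mean over probe sets, with the top 5%, without _s_at and _x_at probe sets, with cut-offs over all probe sets and with dim signals raised to 119, and with the top 10% MNT joined it (2 genes). In NGP over the pool 1 gene was called high with log2(signal + 32) and with dim signals raised to 119 (MXI1), and without dim probe sets, with the brightest probe set, with the top 10% and without the 5 MYCN probe sets of shared source (MYCN). For NGP over IMR-32, 2 were called high with log2(signal + 32) (MYC and MXI1), 0 without dim probe sets, and 1 with dim signals raised to 119, which was MXI1 and not MYC. Centring the ratios and quantile-normalizing the arrays changed no count of called members. Of 317 recomputed member ratios, 300 moved by less than the SD between probe sets, 17 moved by more and 0 of the called ones changed sign. Of 288 list medians 283 moved by less than that SD, and of 576 list counts 506 stayed within 1.5 times. The repressed targets in IMR-32 went from a median of -0.97 to -2.55 without dim probe sets, and from 1 low call to 3. CDKN2B, TGM2 and THBS1 were kept there only by probe sets bright in the pool and dim in IMR-32, which fixed the direction of their ratios. The cut-offs were narrower with log2(signal + 32) and with dim signals raised to 119 (1.20 and 0.91 for high calls in NGP over the pool). With log2(signal + 32), MGA, ARRDC4, FBXW7, FBL and TERT were called high in NGP over the pool, and HDAC2 high and HDAC1 low in IMR-32. With dim signals raised to 119 these calls were also made, as were EP400 and FBXW7 high in IMR-32, and RBBP4, CCNT1, CIP2A, CDK4 and DKK1 high and HDAC1 and CDKN1A low in NGP. Without _s_at and _x_at probe sets SMARCB1 was called high in NGP. No paired analysis was possible because each sample has 1 array. Signals below the array median limit the ratios of MYC and MYCL, of 7 MYCN probe sets in IMR-32 and 6 in NGP, and of the MNT probe set 236749_at.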
